A study of Rattus norvegicus with 3 samples.

Results

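The expression of 6 chemokine genes was followed in reperfused rat kidneys: Ccl2, Ccl7 and Ccl20 of the CC family, and Cxcl1, Cxcl2 and Cxcl3 of the CXC family. They were taken by name, with every probe set whose only annotated gene is 1 of them, which gave 10 of the 31099 probe sets on the array and 6 of its 14218 named genes. A probe set is a group of short probes that read 1 transcript. Cxcl3 has 5 probe sets and each of the other genes has 1.

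The kidneys came from male Wistar rats weighing 370 to 508 g. They lay in the dead donor for 20 min of warm ischaemia, were kept cold in University of Wisconsin solution for 17 ± 0.7 h and were then fed by the femoral artery of a recipient for 5 h 43 min ± 21 min; what the ± stands for is not stated in the labels. The heparin recipients received heparin at 100 U/ml/h, the peptide recipients peptide 2 at 0.5 mg/ml, and the control recipients normal saline at 1 ml/h, with 7 recipients in each group and heparin withheld as an anticoagulant. The treatment protocol calls this an infusion and the design text a bolus. The series' design text bases the peptide on the part of CCL5, another chemokine, that binds heparin, and the study asked whether either agent is anti-inflammatory. Each of the 3 arrays held the pooled RNA of 3 of the 7 kidneys of its group, those with the best RNA, so every value below is that of 1 pool.

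Since every group had a single array, no difference has a replicate check, no test was possible, and no error can be attached to a value. Values are log2 expression values, and a difference of 1 is 2-fold. A gene counted as measured when it lay at or above the array median (4.16 for heparin, 4.14 for peptide and 4.14 for control) on both arrays compared. In these pools, more RNA per cell and more cells of a type cannot be told apart. The kidney label held: all 12 of the 12 nephron marker genes found on the array were measured, and uromodulin (Umod), made by the thick ascending limb, read 15.02, 14.88 and 14.85 in heparin, peptide and control.

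Chemokines are small secreted proteins that bind heparan sulfate on vessel walls and guide white cells through G-protein-coupled receptors. CCL2 and CCL7 draw monocytes through CCR2, CCL20 draws dendritic cells and lymphocytes through CCR6, and CXCL1, CXCL2 and CXCL3 draw neutrophils through CXCR2. In kidney injury, tubular cells, endothelium and resident macrophages make them within hours, in large part through the transcription factor NF-kB.

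Promoters of 4 of the 6 genes were found in RefSeq (GRCr8 assembly), those of Ccl7, Ccl20, Cxcl1 and Cxcl2, and the same stretch of each is shown because NF-kB sites close to the start are known in genes of this kind. Each stretch runs from base -120 to base -21 before the annotated start, on the gene's strand, and capitals mark matches to the NF-kB consensus, to the AP-1 motif TGANTCA or to TATAAA.
Cxcl1 (chr14:17479342-17479441, minus strand): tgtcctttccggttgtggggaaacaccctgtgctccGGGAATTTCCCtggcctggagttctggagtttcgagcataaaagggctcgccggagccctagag
Cxcl2 (chr14:17467276-17467375, minus strand): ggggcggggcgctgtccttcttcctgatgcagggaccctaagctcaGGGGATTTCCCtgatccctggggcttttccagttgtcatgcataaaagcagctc
Ccl20 (chr9:91837039-91837138, plus strand): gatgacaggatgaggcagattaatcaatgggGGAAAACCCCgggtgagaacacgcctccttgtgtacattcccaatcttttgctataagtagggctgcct
Ccl7 (chr10:67513975-67514074, plus strand): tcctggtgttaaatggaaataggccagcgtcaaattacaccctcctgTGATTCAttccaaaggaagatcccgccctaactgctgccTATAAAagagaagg

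Matches to the NF-kB consensus were searched on both strands over the 300 bases from 250 before to 50 after each start. Cxcl1, Cxcl2 and Ccl20 hold it, 3 of the 4 promoters, against 4.18% of all 33469 rat promoters of that length. In Cxcl1 the match is an 11-base run, GGGAATTTCCC, from -84 to -74, read on both strands with overlap. Cxcl2 carries GGGGATTTCCC from -74 to -64, which differs from the Cxcl1 run by A4G, counted from 1 at the 5′ end of the run. The Ccl20 match is the single GGAAAACCCC from -89 to -80. Ccl7 holds no match to these letters in this window; it has an AP-1 match at -73, a motif in 7.33% of promoters (both strands searched), and TATAAA at -34, found in 8.80% (gene strand only). A match describes the sequence and is not evidence of binding. On the arrays, 405 genes with an NF-kB match were measured in heparin against control. Of them 1.73% were higher and 0.494% lower by 2-fold or more, beside 1.03% and 0.709% of the 7762 measured genes with a promoter. In peptide against control the shares were 1.48% and 0.494%, beside 0.681% and 0.116%. The median difference was 0.00 in both comparisons for both sets of genes. These sets include Ccl20, Cxcl1 and Cxcl2 themselves. Each 0.494% is only 2 of 405 genes, with Ccl20 among them in both comparisons. The shares of higher genes with a match are 7 genes in heparin and 6 in peptide.

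All 6 genes were measured on all 3 arrays, with 8 of their 10 probe sets above the median, so none entered through a single group. Heparin and peptide each had higher Ccl7 and lower Ccl20 than control by more than 2-fold, and peptide had higher Ccl2 as well. On the probe set that stands for each gene, the 3 neutrophil attractants differed from control by less than 1.5-fold in both treatments, beside 6.41% of measured genes past 1.5-fold either way in heparin and 3.03% in peptide. In heparin against control, 1 of the 6 genes was 2-fold or more higher, beside 1.06% of 9236 measured genes, and 1 was 2-fold or more lower, beside 0.747%. In peptide against control, 2 were at least 2-fold higher, beside 0.723% of 9268 measured genes, and 1 was at least 2-fold lower, beside 0.119%. Both treatments were set against the same control pool, so an odd control value would appear in both differences. Counting any amount, 4 of 6 were higher in heparin than in control, beside 25.8% of measured genes, and 5 of 6 in peptide, beside 32% of them. The median difference of the 6 genes was 0.29 in heparin and 0.45 in peptide, and that of all measured genes was 0.00 in both.

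**Figure D1:**
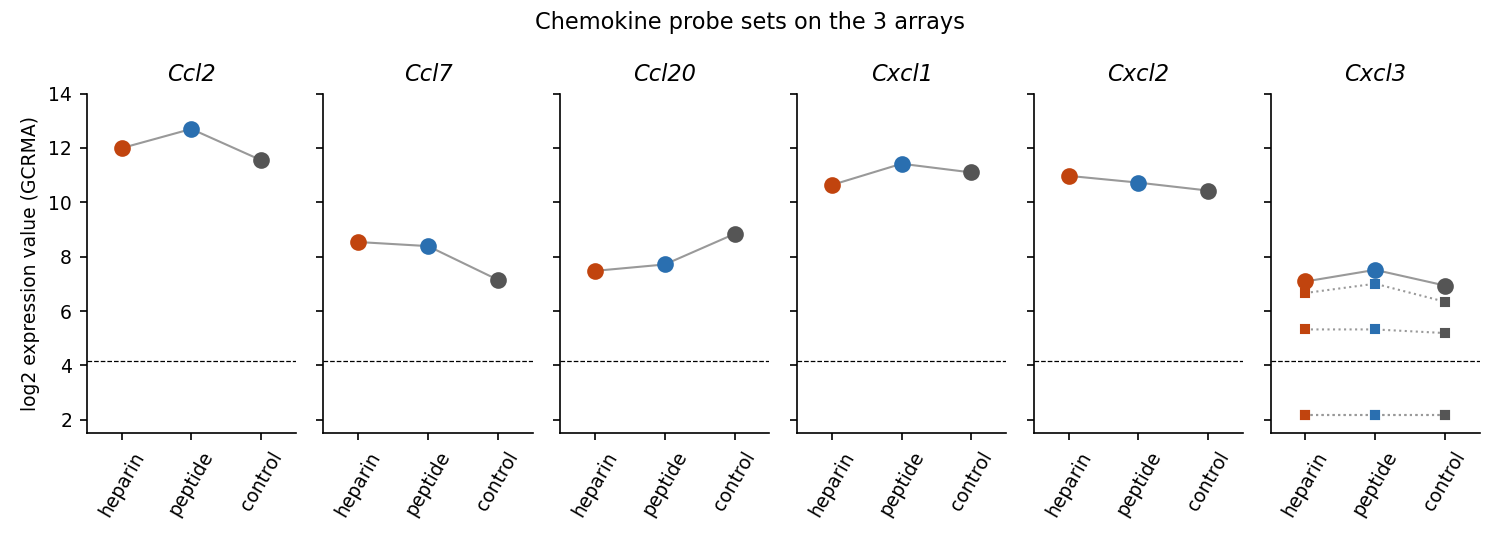
Log2 expression value (vertical axis) of every probe set of the 6 chemokine genes on the heparin, peptide and control arrays, 1 pool each; circles are the probe set that stands for the gene, squares the other probe sets of Cxcl3, and the dashed line the median of all probe sets averaged over the arrays. Ccl7 is lowest and Ccl20 highest in control, and 2 Cxcl3 probe sets lie on top of each other at 2.18 on every array.

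Ccl2 encodes the main monocyte attractant, also called MCP-1. It read 11.99 in heparin, 12.70 in peptide and 11.55 in control. Peptide was highest and control lowest. The peptide pool was 2.21-fold higher than control, a log2 difference of 1.15 that 48 of 9268 measured genes, itself counted, reached or passed. The heparin pool differed from control by 0.44, or 1.36-fold, which 418 of 9236 genes reached or passed, 4.53% of them.

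Ccl7 encodes MCP-3, a monocyte attractant that also binds CCR1 and CCR3. It read 8.54 in heparin, 8.39 in peptide and 7.15 in control. Control stood apart below both treated pools, which lay close together. Heparin was 2.62-fold higher than control (log2 difference 1.39), a place reached by 53 of 9236 genes, and peptide was 2.36-fold higher (1.24), reached by 42 of 9268. Of these CCR2 ligands, both were past 2-fold in peptide, and in heparin Ccl7 alone was.

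Ccl20, the ligand of CCR6, read 7.48 in heparin, 7.71 in peptide and 8.84 in control. Here control was the highest of the 3 pools. Heparin was 2.56-fold lower than control (log2 difference -1.36), reached by 28 of 9236 measured genes. Peptide was 2.18-fold lower (-1.12). Only 11 measured genes were at least 2-fold lower in peptide than in control, and Ccl20 ranked 10 among them.

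Cxcl1, the rat neutrophil attractant also known as CINC-1, read 10.64 in heparin, 11.42 in peptide and 11.10 in control. It was the only 1 of the 6 genes whose difference from control had opposite signs in the treatments, with -0.46 in heparin (1.38-fold lower) and 0.32 in peptide (1.25-fold higher). Both differences are small: 6.11% of measured genes were as low or lower in heparin, and 6.23% as high or higher in peptide.

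Cxcl2, a close relative of Cxcl1 also called MIP-2, read 10.97 in heparin, 10.72 in peptide and 10.43 in control. Control was lowest. The differences from control were 0.54 in heparin (1.46-fold) and 0.29 in peptide (1.22-fold), reached by 3.52% and 7.02% of measured genes.

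Cxcl3 encodes a further ligand of this kind, CINC-2. Its brightest probe set read 7.09 in heparin, 7.51 in peptide and 6.94 in control. Heparin was 0.15 above control (1.11-fold) and peptide 0.58 (1.49-fold). The next probe set, of the kind marked as able to bind other transcripts, read 6.66, 7.00 and 6.34 in the same order, with differences of 0.32 in heparin and 0.66 (1.58-fold) in peptide. Another read 5.32 in heparin, exactly the same in peptide, and 5.19 in control, a difference of 0.13 for both treatments. The last 2 lay at 2.18, the lowest value of the whole data set, on all 3 arrays and carry no information on the transcript. The 3 bright probe sets thus share the sign of the difference from control, while its size in peptide runs between 0.13 and 0.66. All 3 are annotated to the same source sequence, so their shared sign is not independent support. Probe sequences were not used here, so cross-binding between the related Cxcl1, Cxcl2 and Cxcl3 transcripts was not tested.

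**Figure D2:**
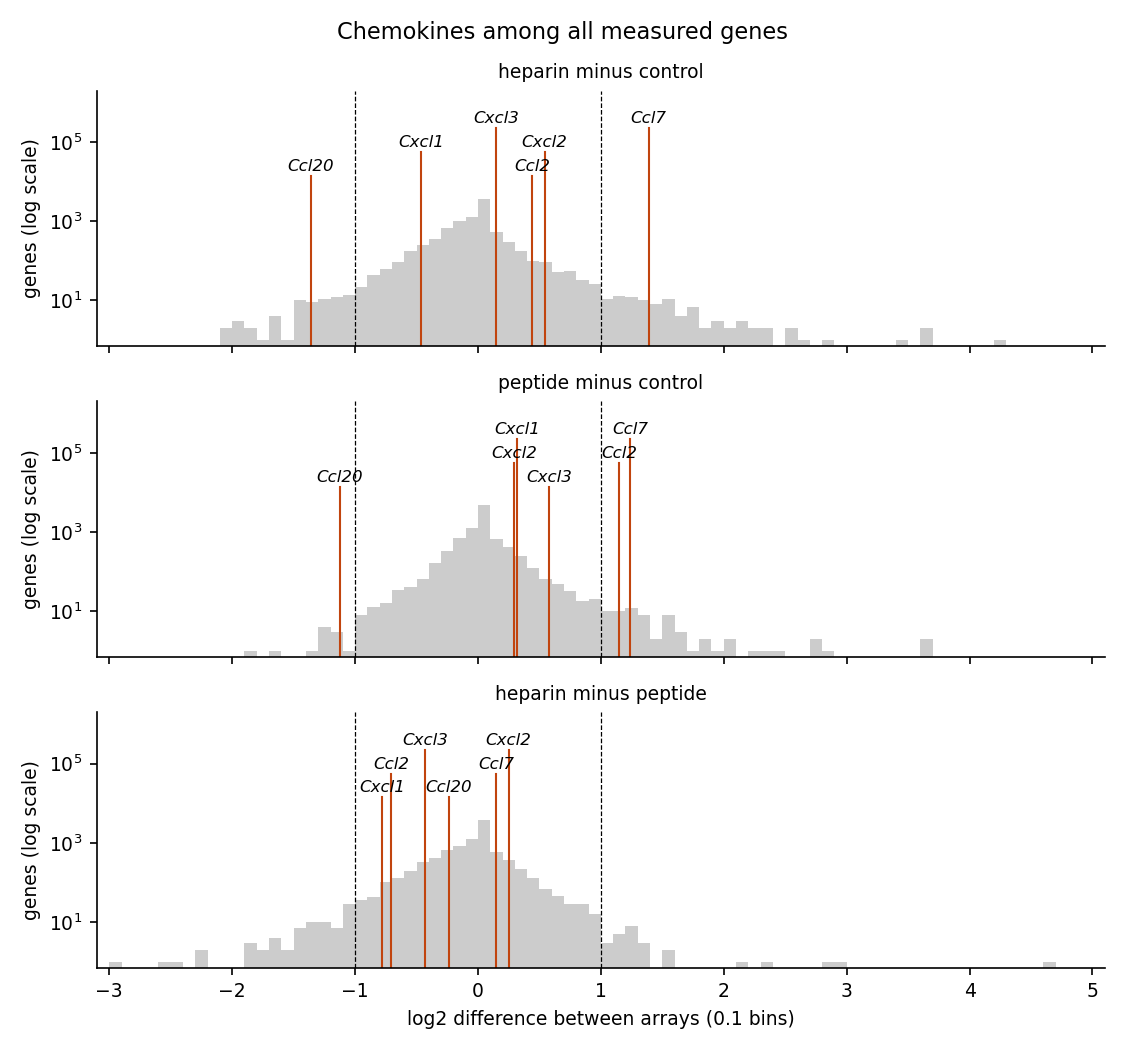
Number of measured genes (log axis) by log2 difference in bins of 0.1, for heparin minus control, peptide minus control and heparin minus peptide; red lines place the 6 chemokine genes (their height carries no value) and dashed lines mark 2-fold. Ccl20 (-1.36 and -1.12) and Ccl7 (1.39 and 1.24) lie past 2-fold on opposite sides in both comparisons with control.

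Set directly against each other, heparin and peptide differed by less than 2-fold for all 6 genes, beside 1.13% of 9240 measured genes past 2-fold either way. Cxcl1 was 1.72-fold lower in heparin than in peptide (log2 difference -0.78), and 178 of 9240 genes were as low or lower. Ccl2 was 1.63-fold lower (-0.71). These were the 2 of 6 genes at least 1.5-fold lower in heparin, beside 4.57% of measured genes. On its brightest probe set Cxcl3 differed by -0.43, beside -0.34 and 0.00 on its others above the median. Ccl20 differed by -0.24, while Cxcl2 (0.25) and Ccl7 (0.15) were slightly higher in heparin. In all, 4 of the 6 were lower in heparin by any amount, beside 43.7% of measured genes, and 0 of them by 2-fold, beside 0.844%. The median over the 6 genes was -0.33 and over all measured genes 0.00.

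The genes lie in groups on the chromosomes. In the RefSeq table Ccl2 is followed on chromosome 10 by Ccl7, Ccl11 and Ccl12. Ccl11, the eosinophil attractant eotaxin, was at the lowest value, 2.18, on all arrays, so next to Ccl2 and Ccl7 it showed no measurable signal in any pool. On chromosome 14 the order is Mthfd2l, Cxcl2, Cxcl1, a gene with only a locus number, Cxcl3, Pf4, Ppbp and Cxcl6. Pf4, a chemokine of platelet granules, read 9.04 in heparin, 8.90 in peptide and 9.80 in control, with differences from control of -0.76 and -0.90. It was thus lower in both treated pools, where Cxcl2 and Cxcl3 on the same stretch were higher. The enzyme gene Mthfd2l read 5.66 on all 3 arrays. Ppbp, another platelet chemokine, and Cxcl6, a further neutrophil attractant (Cxcl5 is listed as its synonym), lay below the median on every array: Ppbp at 2.21, 2.21 and 2.20 and Cxcl6 at 2.68, 2.68 and 2.83 in heparin, peptide and control. Ccl20 stands on chromosome 9 without another chemokine gene among the 3 neighbours on either side.

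**Figure D3:**
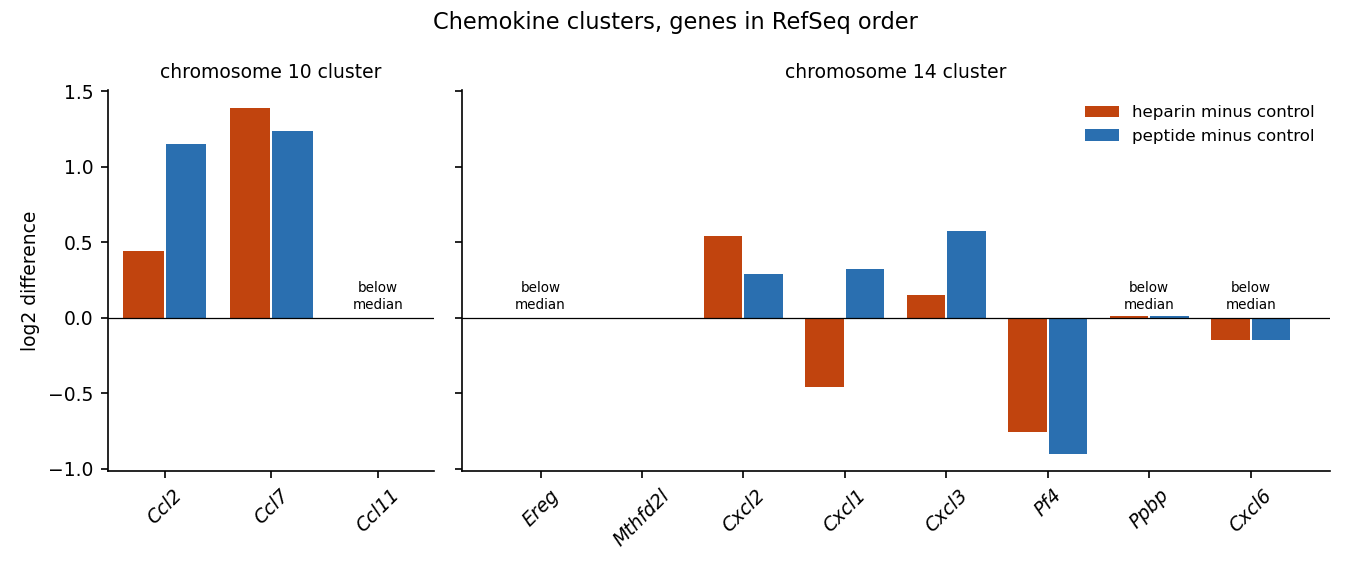
Log2 difference from control (vertical axis) in heparin and in peptide for the genes of the chromosome 10 and chromosome 14 clusters that are on the array, in RefSeq order and evenly spaced; "below median" marks genes not measured on all 3 arrays. Ccl7 has the tallest bar in heparin (1.39) and in peptide (1.24), Cxcl1 the only pair of bars with opposite signs, and Pf4 is lower in both.

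The receptors gave little signal. Of 8 receptor genes, all found on the array, 3 were measured, 0 were 2-fold apart in any comparison, and 3 (Ccr3, Cxcr1 and the scavenging receptor Ackr2) were at the lowest value on every array. Ccr2, the receptor of CCL2 and CCL7, read 3.06 in heparin, 3.03 in peptide and 3.03 in control, under the median. Ccr6, the receptor of CCL20, read 2.28 on all arrays. Cxcr2, the receptor of the 3 CXC ligands, read 4.82 on all arrays, and Ackr1, which carries chemokines across venular endothelium and on red cells, read 4.39. Ccr1, a receptor of CCL7 and CCL5, was the one that varied, at 7.98 in heparin, 7.10 in peptide and 7.82 in control. Its difference from control was 0.16 in heparin and -0.73 in peptide. Identical values on different arrays are common in these data (30.1% of measured genes in heparin against control and 39.5% in peptide against control had a difference of exactly 0) and do not show equal transcript amounts.

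Among other CC chemokines 13 of 17 were found and 7 measured. None was 2-fold apart in heparin against control, and 1 was 2-fold higher in peptide, beside 0.723% of all measured genes: Ccl5, the parent of the peptide, at 9.39 in heparin, 10.54 in peptide and 8.60 in control. Ccl4 read 5.36, 6.88 and 6.03, lower than control in heparin (-0.67) and higher in peptide (0.85), the same signs as Cxcl1. In heparin against peptide 2 of the 7 were at least 2-fold lower, Ccl4 (-1.52) and Ccl5 (-1.15), beside 0.844% of all measured genes. Ccl3, its neighbour in the family, differed from control by 0.31 in heparin and 0.45 in peptide. Of 9 other measured chemokines of the CXC and CX3C families, 2 were at least 2-fold higher in heparin, beside 1.06% of all measured genes, and 1 in peptide, beside 0.723%. These were Cxcl13, a B cell attractant (2.10 in heparin and 1.35 in peptide), and the interferon-induced Cxcl10 (1.00 in heparin, 0.98 in peptide).

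Several cytokines that switch these chemokines on read below the array median. The list of 10 inflammatory cytokines is wider than such inducers and includes Il6, Csf2 and Csf3. Of the 10, 9 were found and 4 measured, and 0 of the 4 were 2-fold apart in any comparison. Tnf was below the median, at 3.64 in heparin, 3.66 in peptide and 3.76 in control, and Il1a, Il17f and Ifng were at the lowest value on all arrays. Il6, an acute-phase cytokine induced beside the chemokines, read 11.87, 11.59 and 11.24, with differences from control of 0.62 and 0.35. Il1b, which induces all 3 CXC ligands, read 9.69, 9.14 and 9.41, with differences of 0.28 in heparin and -0.27 in peptide. Osm, a cytokine of the Il6 family, differed by 0.66 in heparin and 0.19 in peptide. Csf3, also measured, differed by 0.00 in heparin and -0.06 in peptide. The median of the 4 measured cytokines was 0.45 in heparin and 0.06 in peptide, against 0.00 for all measured genes.

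Receptors and adaptors of these cytokines had 16 measured of 18 found, with 0 past 2-fold in any comparison and medians of 0.00 in heparin and 0.08 in peptide. The interleukin 1 receptor Il1r1 was 0.60 higher in heparin and 0.37 in peptide, the bacterial lipoprotein receptor Tlr2 differed by 0.51 and -0.23, and the kinase Irak2 by -0.06 and 0.62. Of 20 measured genes of NF-kB and its partner transcription factors, 0 were past 2-fold against control. In heparin 5 were higher, 13 lower and 2 identical, and in peptide 11 were higher, 3 lower and 6 identical. Over all measured genes, 25.8% were higher and 44.2% lower in heparin, and 32% higher and 28.5% lower in peptide. Nfkbia, the inhibitor that NF-kB itself induces, is not among the genes chosen for size and is given because of its role: it differed by 0.12 in heparin and 0.13 in peptide. The largest differences were those of Cebpb, a leucine zipper factor of inflammation (-0.38 in heparin and 0.65 in peptide), and of the AP-1 subunits Fosl1 (-0.62 and -0.02) and Junb (-0.57 and 0.14). In heparin against peptide 1 of the 20 was at least 2-fold lower, Cebpb at -1.03, beside 0.844% of all measured genes.

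Chemokine messages are short-lived, and RNA-binding proteins set their decay. All 10 genes of this list were measured and 0 were 2-fold apart in any comparison, with medians of -0.11 in heparin and 0.00 in peptide. Zfp36, or tristetraprolin, which speeds the decay of AU-rich messages including that of Cxcl1 in mouse, read 11.56 in heparin, 12.52 in peptide and 11.94 in control. Like Cxcl1 it was lowest in heparin and highest in peptide. Its differences from control were -0.38 and 0.58, beside -0.46 and 0.32 for Cxcl1. This order is not particular to Zfp36, since Cebpb and Ccl4 above had it too, and a link between Zfp36 and Cxcl1 was not tested. Zc3h12a, an RNase of inflammatory messages also called regnase-1, differed by -0.62 and 0.09. Elavl1, the stabilising protein HuR, differed by -0.24 and -0.59.

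**Figure D4:**
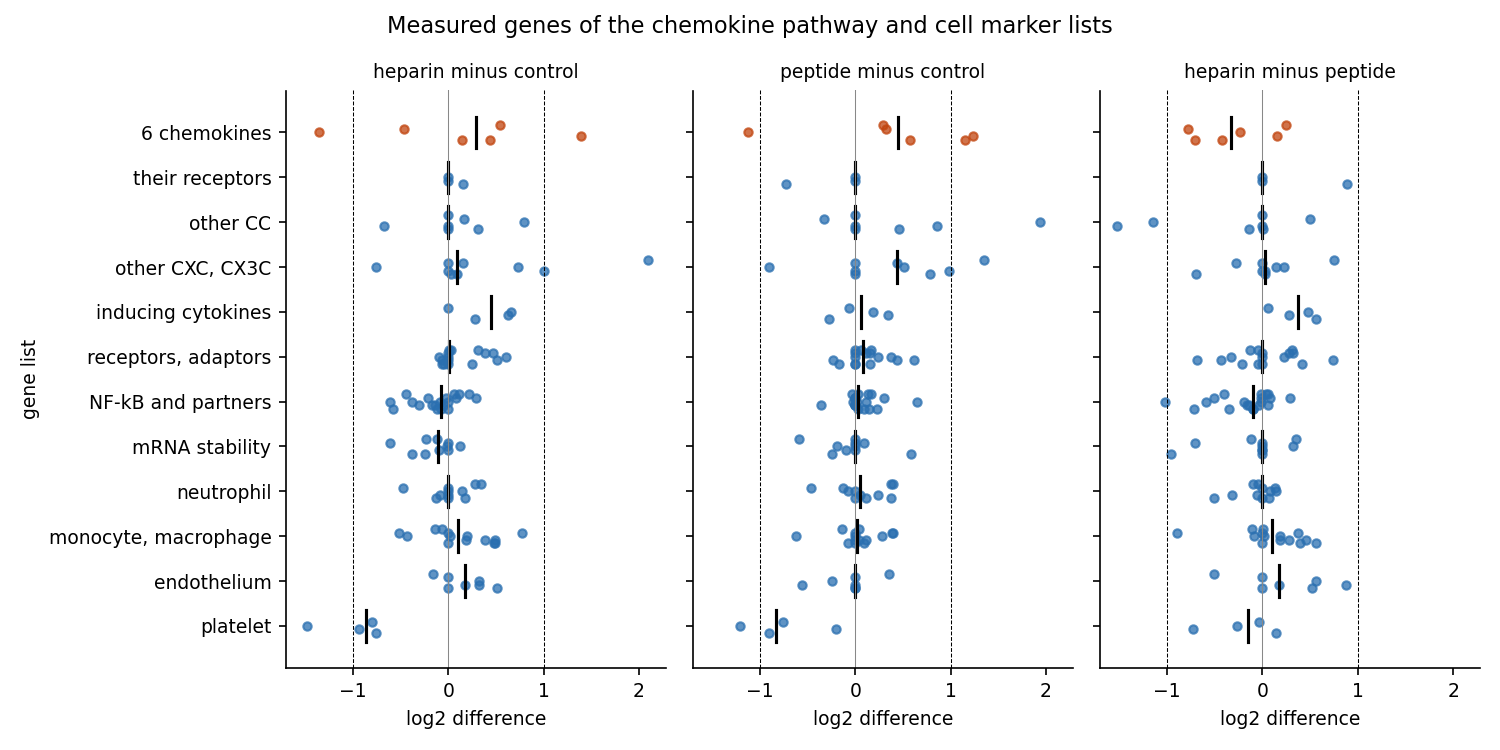
Log2 difference (horizontal axis) of each measured gene in the 6 chemokines and in 11 lists of pathway genes and cell markers, for the 3 comparisons; each point is a gene, the black bar the median of the list and the dashed lines 2-fold. The chemokines spread from -1.36 to 1.39 in heparin minus control. No measured receptor, NF-kB or mRNA stability gene passes 2-fold against control. Of all measured genes, 1.06% are 2-fold or more higher and 0.747% lower in heparin, and 0.723% and 0.119% in peptide.

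Most markers of neutrophils and monocytes found on the array were measured, and 0 were past 2-fold. Of 23 neutrophil markers 15 were found, 11 measured and 3 at the lowest value on all arrays, and 0 were 2-fold apart in any comparison. Their summed unlogged level was 13618 in heparin, 17045 in peptide and 14269 in control. The granulocyte proteins S100a8 and S100a9 made up 84.1%, 87.8% and 85.9% of it, and the other markers summed to 2167, 2079 and 2007. Mmp8, the neutrophil collagenase, read 6.32 in both heparin and peptide and 6.79 in control, the oxidase subunit Cybb was 0.34 higher in heparin and 0.39 in peptide, and Mmp9, gelatinase B, 0.28 and 0.38. Camp, Np4 and Padi4 were the markers at the lowest value. Of 21 monocyte and macrophage markers 17 were found, 14 measured and 2 (Cd163 and Cx3cr1) at the lowest value, again with 0 past 2-fold. Their summed unlogged level was 23284 in heparin, 17944 in peptide and 16910 in control. Lysozyme (Lyz2) alone made up 68.1%, 64.5% and 66.7% of it, and the other markers summed to 7435, 6369 and 5637. Ccl7 too was highest in heparin, but Ccl2 was highest in peptide. In heparin 8 of the 14 measured markers were higher than control and 4 lower, beside 25.8% and 44.2% of all measured genes. In peptide 7 were higher and 3 lower, beside 32% and 28.5%. The medians of the 14 were 0.10 and 0.02. The genes with the largest differences were mixed. Plac8 differed by 0.77 and 0.40, the integrin Itgax by -0.44 and -0.62, and Aif1, a macrophage calcium-binding protein, by -0.52 and 0.38. Among those with smaller differences, named after their values were seen, Lyz2 (0.49), the Fc receptor Fcgr1a (0.49), Cd68 (0.48) and Cd14 (0.39) were higher in heparin than in control. In peptide they differed by 0.04, 0.09, -0.08 and 0.11. The rest of the measured list moved less in heparin. C1qc differed from control by 0.19, C1qb by 0.18, Csf1r by 0.02, Mrc1 and C1qa by 0.00, Tyrobp by -0.07 and Adgre1 by -0.14. Whether cell numbers had a part in the chemokine values was not tested.

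Of 14 lymphocyte markers 12 were found and 1, Cd3e, was measured, at 4.76 on all arrays. Endothelial markers had 7 measured of 7 found, 0 past 2-fold and medians of 0.18 and 0.00, with the VEGF receptor Kdr at 0.32 and -0.56, Emcn at 0.51 and 0.00, and Vwf at -0.16 and 0.36 in heparin and peptide. Platelet markers were lower in both treated pools, as Ccl20 was. All 4 measured of 5 found were lower than control, beside 44.2% of all measured genes in heparin and 28.5% in peptide. Their medians were -0.87 in heparin and -0.83 in peptide. The platelet tubulin Tubb1, at -1.49 and -1.22, was the 1 past 2-fold, beside 0.747% and 0.119% of all measured genes at least 2-fold lower. The summed unlogged level of the platelet markers was 858 in heparin, 861 in peptide and 1520 in control. Of it, 61.4%, 55.3% and 58.6% came from Pf4, and Gp9 was at the lowest value on all arrays. The part of platelets in the Ccl20 value was not tested. Itga2b differed by -0.94 and -0.20. Red cell markers, 4 measured of 4 found, had medians of -0.12 and 0.14, with Alas2 at -1.13 and -0.34, Gypc at 1.00 and 0.57 and Slc4a1 at 0.00 and 0.35. Alas2 in heparin was the 1 past 2-fold, beside 0.747% of all measured genes at least 2-fold lower. Gypc in heparin lay just under 2-fold. Of the 12 nephron markers 1 was past 2-fold against control, beside 0.747% of all measured genes at least 2-fold lower in heparin. This was Calb1 of the connecting tubule, at -1.83 in heparin and -0.22 in peptide. Podxl of podocytes was at 0.74 and -0.08 and the glucose transporter Slc5a2 at -0.52 and -0.05. For beta-actin, the 3' probe set minus the 5' probe set, a sign of RNA integrity, gave 2.95 in heparin, 2.34 in peptide and 2.33 in control. The same measure gave 0.32, 0.37 and 0.36 for GAPDH and 2.18, 2.28 and 2.18 for hexokinase, so neither was largest in heparin. The hexokinase value was identical in heparin and control, and such a tie does not show equal RNA integrity. The part of RNA integrity in the chemokine values was not tested.

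For each chemokine the genes with the nearest pair of differences from control were looked up among 9231 genes measured on all 3 arrays. The measure is the distance in log2 units between the pairs (heparin minus control, peptide minus control), so it rests on 3 arrays and on 1 shared control. The nearest to Ccl7 were Isg15, a ubiquitin-like modifier (1.34 in heparin and 1.23 in peptide, distance 0.05), Oas1a, an oligoadenylate synthetase (1.33 and 1.21), and Ccrl2, a chemerin-binding receptor (1.38 and 1.32). There were 17 genes within a distance of 0.25 of Ccl7. Only 2 lay that close to Ccl2, Rtp3 (0.56 and 1.11) and the interleukin 18 inhibitor Il18bp (0.50 and 0.91), and the next was Abcb10 (0.32 and 0.91). For Ccl20 there were 3: Npy, or neuropeptide Y (-1.37 and -1.01), Tubb1 (-1.49 and -1.22) and the muscle LIM protein Csrp3 (-1.28 and -1.28). The CXC genes lay in the crowded middle, with 277 genes that close to Cxcl1, 183 to Cxcl2 and 119 to Cxcl3. Their nearest were Cebpa, Tmem139 and Kcnk5 for Cxcl1, Nub1, Xdh and Borcs7 for Cxcl2, and Il4r, Arg2 and Tmbim4 for Cxcl3, all within 0.03. With so many genes at that distance, these names say little.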

How the data were processed

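Expression was measured on Affymetrix rat arrays, 1 per group, from biotin-labelled cRNA of pooled kidney RNA, per the labels' protocols. The deposited log2 values were made with GCRMA, per the submitters' processing notes, which give no version. How it was set, and whether arrays were scaled to each other, is not stated in the labels. GCRMA corrects the background by probe sequence. In the deposited values many probe sets lie at a common lowest value. Exact ties between arrays are also common among genes above the median, and their origin was not tested. The values were used as deposited.

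Each gene was read from the probe set brightest on average (python 3.11.15, pandas 2.3.3), and all probe sets of the 6 chemokines are given. Symbols came from the platform annotation. Of 31099 probe sets, 20832 had 1 symbol, 436 several and 9831 none. Differences of log2 values were counted at 2-fold, over genes at or above the array median. Against control, 1.06% of all measured genes were that much higher and 0.747% lower in heparin, and 0.723% and 0.119% in peptide. A count of 0 in a short list is thus near the share over all genes. No test was made, and the counting was checked on simulated data. "At the lowest value" means within 0.01 of it. The sums of markers are of unlogged values. Arrays have no read depth, and their number limits the precision.

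Named beside the 6 genes were all listed receptors and neutrophil attractants, up to 3 measured genes of each other list with the largest difference from control, the 3 nearest genes and the 3 neighbours on each side. Nfkbia, Tnf, Csf3, Umod, S100a8, S100a9 and genes named for lying at or below the median are outside that rule. So are the monocyte and macrophage markers other than Plac8, Itgax and Aif1. All of these were named after their values were seen. The members and lists were chosen with earlier results of these data known. The alternatives were other normalizations, filters, probe set choices and folds.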

Additional observations from a re-analysis of the deposited data

How the results depend on the processing

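The differences of the 6 chemokines were recomputed under quantile normalization, with array medians subtracted, with filters at the 40th and 60th percentile and none, with the mean or the dimmest probe set of a gene, and with 32 added to the unlogged values. Of 141 recomputed differences, 84 could not change, since a filter leaves a gene's own difference as it is and 5 of the genes have 1 probe set. The other 57 kept their direction and lay within 1.5-fold of the reported ones. Ccl7 ranged from 1.22 to 1.44 in heparin and 1.08 to 1.24 in peptide, Ccl20 from -1.36 to -1.22 and -1.15 to -1.02, and Ccl2 in peptide from 1.10 to 1.15, so all 5 stayed past 2-fold. Cxcl3 in peptide ranged from 0.27 to 0.58, lowest with the mean of its probe sets, and could not be measured with its dimmest. Of the 54 recomputed counts, many fixed in the same way, 1 moved by over 1.5 times: at a fold of 1.5 the count of chemokines lower in heparin than in peptide was 2 in place of 0. No paired analysis was possible because each group had 1 array and the labels give no replicate numbers. Pooling hides the spread between animals, and no alternative setting stands in for replicate arrays.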
